A study of Mus musculus with 7 samples.

Results

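Growth hormone and prolactin signalling was followed through 9 genes: the receptors Prlr and Ghr, the transcription factors Stat5a and Stat5b, the feedback inhibitors Cish and Socs2, the serotonin synthesis enzymes Tph1 and Tph2, and the growth factor Igf1. They were taken by symbol through the transcript accession that the array gives for each probe, and every probe was kept, which gave 17 of the 56605 probes on the array and 9 of its 22911 named genes. Of these 17 probes, 13 probes from 7 genes were bright enough to be tested, and the 4 probes for Tph1 and Tph2 were not. The arrays held RNA of isolated islets of Langerhans from 3 control mice (Pdx1CreER Tg-; Wnt4 fl/fl) and 4 Wnt4βKO mice (Pdx1CreER Tg+; Wnt4 fl/fl), 1 Agilent single-colour array per mouse. Controls were littermates, and both groups carried floxed Wnt4 alleles, received tamoxifen by gavage at 4 to 5 weeks, and were killed at 7 weeks; per the methods the mice were male. The groups thus differed in the Cre transgene as well as in Wnt4, with no array of Cre-positive mice with intact Wnt4. A difference that comes from the transgene and one that comes from Wnt4 loss therefore cannot be told apart on these arrays. The paper reports a normal glucose response in Cre-positive mice heterozygous for floxed Wnt4, and takes this to support no effect of the Cre allele. Islet RNA of such heterozygous mice was not on these arrays.

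Growth hormone and prolactin bind receptors of the same cytokine receptor family, which signal through the kinase JAK2 to STAT5. STAT5 enters the nucleus and induces its own brakes, the SOCS-family proteins CISH and SOCS2, and in liver it induces Igf1. In β-cells, prolactin and placental lactogens act through PRLR, and during pregnancy this route is known to raise Tph1 and serotonin and to favour β-cell growth. Some Cre transgenes carry a human growth hormone sequence, and human growth hormone can act on the rodent prolactin receptor; the comparison therefore asked whether islets with the transgene differed in these genes. The labels and methods do not say whether this Cre line carries such a sequence.

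The promoter of Cish is shown because Cish had the clearest difference of the 9 genes, and because it holds the letters that STAT5 dimers are known to bind, TTCNNNGAA, a palindrome that reads the same on both strands. The stretch runs from 120 bases before to 30 bases after the annotated RefSeq start (GRCm38.p6, chr9:107296539-107296688, plus strand), with the motif matches in capitals.
Cish: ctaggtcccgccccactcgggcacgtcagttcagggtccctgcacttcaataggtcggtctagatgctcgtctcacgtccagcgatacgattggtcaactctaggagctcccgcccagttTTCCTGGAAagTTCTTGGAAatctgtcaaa
The 2 matches began 0 and 11 bases after the annotated start. Among 32851 RefSeq promoter windows of 300 bases (250 before and 50 after each start), 8.3% held the motif at least once and 0.457% at least 2 times. RefSeq windows were found for 8 of the 9 genes, Socs2 being the one without, and of their 14 windows 2 held the motif: that of Cish and 1 of the Prlr windows (chr15:10223656-10223955), which had 1 match beginning 110 bases before the start. A match is a run of letters and not evidence of binding.

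Values are log2 spot signals after background correction and quantile normalization, so that a difference of 1 is a doubling, and each probe is compared only with itself. Differences are Wnt4βKO minus control, tested with limma, two-sided, with Benjamini-Hochberg adjustment over all 26153 tested probes. No member passed an adjusted p of 0.05, against a background of 0.0153% of the tested probes (4 probes). At an unadjusted p of 0.05, 2 of the 13 member probes were lower in Wnt4βKO, where 3.63% of all tested probes were, and 0 were higher, where 3.34% were. In 1 of the 13 probes all Wnt4βKO values were under the lowest control, against 3.69% of all tested probes, and in 0 every one lay above, against 3.52%. Fold changes were below 0 for 9 of the 13 member probes and for 49.1% of all tested probes, with medians of -0.17 and 0.00267. Probes of the same gene are not independent. With the brightest tested probe standing for each of the 7 tested genes, 5 were below 0. At an unadjusted p of 0.05, 1 of these 7 genes was lower and 0 were higher.

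**Figure D1:**
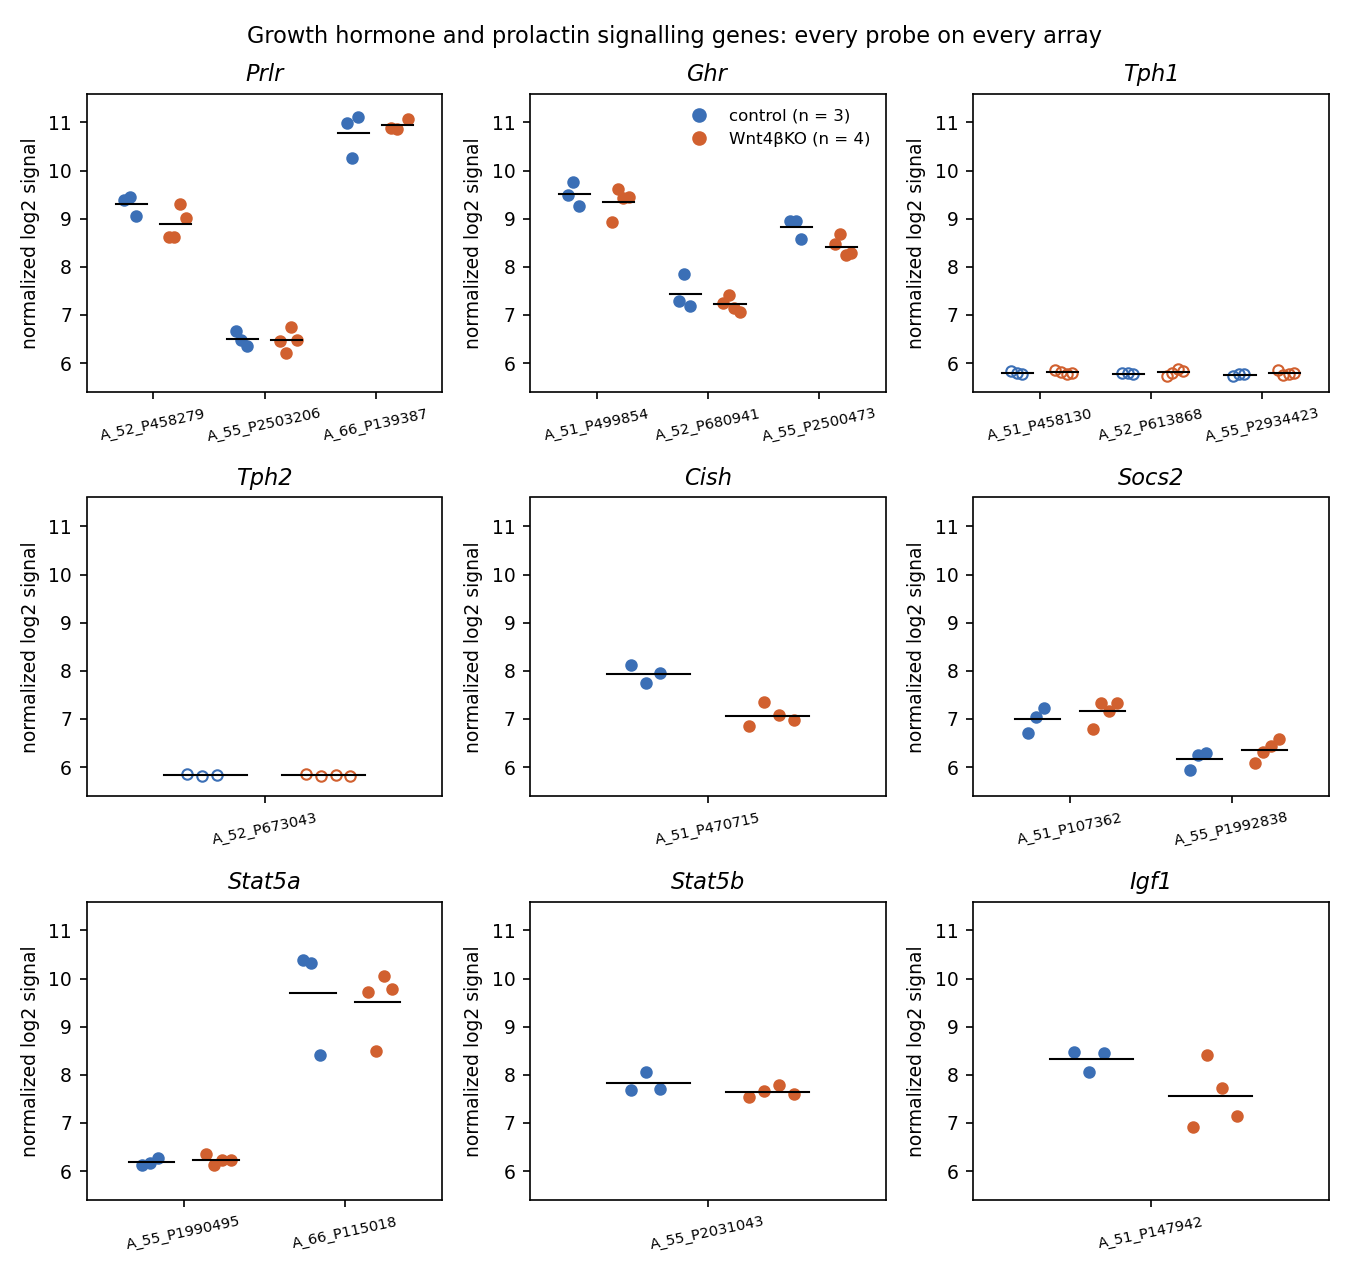
Normalized log2 signal (vertical axis) of each of the 17 probes on every array, control in blue and Wnt4βKO in orange, with lines at group means. Open points mark the probes that were not tested, those of Tph1 and Tph2. The Cish groups are apart, the Igf1 groups overlap at 1 Wnt4βKO array, and all Tph1 and Tph2 points lie between 5.73 and 5.87.

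The receptors were measured by 3 probes each. Prlr, the prolactin receptor, was measured with probe A_52_P458279 at 9.38, 9.46 and 9.05 in the controls (replicates 2, 3 and 4, an order kept throughout) and at 8.61, 8.62, 9.31 and 9.01 in the Wnt4βKO mice (replicates 1 to 4). The groups overlapped, because Wnt4βKO replicate 3 lay above the lowest control. The mean was 9.30 ± 0.22 (SD, n = 3) in controls and 8.89 ± 0.34 (SD, n = 4) in Wnt4βKO, a difference of -0.41 ± 0.20 (SE) with an unadjusted limma p of 0.0723 (adjusted p = 0.751). The unadjusted p was under 0.05 in 4 of 21 alternative treatments, among them the row on the slide as a block (-0.33), the data without Wnt4βKO replicate 3 (-0.55) and those without control replicate 4 (-0.54). It was not with the acinar markers as a covariate (-0.27), and with 1 array left out the difference ran from -0.55 to -0.32.

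The other Prlr probes gave differences nearer 0. A_66_P139387 read 10.98, 10.26 and 11.11 in controls and 10.89, 10.87 and 11.06 in Wnt4βKO replicates 1, 2 and 4, the spot of replicate 3 having been flagged by the scanner software and left out. All 3 remaining Wnt4βKO values lay within the control range, and the difference was 0.16 ± 0.23 (SE, limma adjusted p = 0.927). A_55_P2503206 was dim, between 6.36 and 6.66 in controls and between 6.21 and 6.74 in Wnt4βKO, with a difference of -0.02 ± 0.13 (SE, limma adjusted p = 0.984). The 95% intervals of the 3 differences were -0.87 to 0.05, -0.39 to 0.70 and -0.34 to 0.29, and the mean over the probes of the gene gave -0.17 (unadjusted limma p of 0.185). Over the 6 arrays with a value, the genes whose levels ran most like those of Prlr (probe A_66_P139387) among 13645 compared were Prmt5 (Pearson r = 0.990), Zfp316 (0.988) and Tulp4 (0.985). These are the top of a ranking of many genes over few arrays. Whether such r values exceed those between unrelated genes was not tested.

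Ghr, the growth hormone receptor, was lower at an unadjusted p of 0.05 with 1 of its 3 probes. A_55_P2500473 read 8.96, 8.95 and 8.57 in controls and 8.47, 8.69, 8.25 and 8.28 in Wnt4βKO, so that Wnt4βKO replicate 2 lay above control replicate 4. The mean was 8.83 ± 0.23 (SD, n = 3) in controls and 8.42 ± 0.20 (SD, n = 4) in Wnt4βKO. The difference was -0.41 ± 0.15 (SE, 95% interval -0.75 to -0.06), or 75.5% of the control level, with an unadjusted limma p of 0.0265 and an adjusted p of 0.665. It lay in the arrays of the slide's row 2 (-0.69, 2 against 2 arrays), and in row 1 it was 0.01 (1 against 2 arrays). The unadjusted p stayed under 0.05 in 12 of 21 alternative treatments of the data, and was above it without control replicate 2 (-0.34) or 3 (-0.34) and without Wnt4βKO replicate 3 (-0.35) or 4 (-0.36). It was also above with the acinar markers as a covariate (-0.33), median scaling (-0.41), the processed signal (-0.29) and a normexp offset of 0 (-0.47). The same held without Wnt4βKO replicates 1 and 4 together (-0.36).

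Ghr probe A_51_P499854 read 9.49, 9.77 and 9.27 in controls and 8.93, 9.61, 9.42 and 9.45 in Wnt4βKO. Only Wnt4βKO replicate 1 lay below the control range, and the difference was -0.16 ± 0.18 (SE, limma adjusted p = 0.909). Ghr probe A_52_P680941 ran from 7.18 to 7.85 in controls and from 7.07 to 7.42 in Wnt4βKO, a difference of -0.23 ± 0.17 (SE, limma adjusted p = 0.861). Their 95% intervals were -0.59 to 0.27 and -0.63 to 0.18. The genes that ran most like Ghr (probe A_51_P499854) over the 7 arrays, among 13638 compared, were Rcc1l (Pearson r = 0.984), 1110004F10Rik (0.977) and Gm13375 (0.968). As for Prlr, this ranking is a description and was not tested.

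STAT5A and STAT5B carry the signal from the receptors to the genome. Stat5b read 7.68, 8.05 and 7.71 in controls and 7.54, 7.66, 7.79 and 7.60 in Wnt4βKO. The groups overlapped at 1 array, Wnt4βKO replicate 3, and the difference was -0.17 ± 0.11 (SE, 95% interval -0.44 to 0.10, limma adjusted p = 0.840). For Stat5a, the dim probe A_55_P1990495 ranged from 6.12 to 6.27 in controls and from 6.12 to 6.35 in Wnt4βKO, with a difference of 0.05 ± 0.08 (SE, 95% interval -0.14 to 0.24, limma adjusted p = 0.934).

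The second Stat5a probe, A_66_P115018, varied within both groups far more than it differed between them. It read 10.38, 10.32 and 8.41 in controls and 9.72, 8.49, 10.05 and 9.79 in Wnt4βKO. Control replicate 4 and Wnt4βKO replicate 2 were low and the other 5 arrays high, which put 1 low array in each group. The within-group SD was 0.89, larger than that of 99.6% of the tested probes, and the difference of -0.19 ± 0.56 (SE, limma adjusted p = 0.969) had a 95% interval from -1.51 to 1.13, so that a change of Stat5a by a factor of 2 in either direction was not detectable with this probe.

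Cish, which blocks STAT5 at the receptor and is itself induced by STAT5, had the lowest unadjusted p of the members. Cish read 8.13, 7.74 and 7.95 in controls and 6.85, 7.36, 7.08 and 6.98 in Wnt4βKO. Each Wnt4βKO array lay below each control array, with a gap between 7.36 and 7.74. The mean was 7.94 ± 0.19 (SD, n = 3) in controls and 7.07 ± 0.21 (SD, n = 4) in Wnt4βKO. The difference was -0.87 ± 0.14 (SE, 95% interval -1.21 to -0.54), or 54.6% of the control level, and 0.344% of the tested probes had a difference at least as far below 0. The limma p was 0.000399 before and 0.383 after adjustment over all tested probes.

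The direction of the Cish difference was the same within each row of the slide, with -0.85 in row 1 and -0.90 in row 2. It was also the same in all 21 alternative treatments of the data, from -1.23 to -0.60, with an unadjusted limma p between 0.000175 and 0.00826 and an adjusted p between 0.267 and 1.0. Leaving out 1 array at a time gave -0.97 to -0.78.

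Socs2, the other STAT5-induced brake, gave differences above 0 with both of its probes, neither past the test. Socs2 read 6.71, 7.05 and 7.22 in controls and 6.79, 7.34, 7.16 and 7.34 in Wnt4βKO with probe A_51_P107362. The difference was 0.17 ± 0.17 (SE, 95% interval -0.24 to 0.57, limma adjusted p = 0.897), and the groups overlapped. The dim probe A_55_P1992838, well above background on 6 of the 7 arrays, ran from 5.95 to 6.29 in controls and from 6.08 to 6.58 in Wnt4βKO, with a difference of 0.19 ± 0.14 (SE, 95% interval -0.14 to 0.51, limma adjusted p = 0.861). The difference between the changes of Cish and Socs2 was not itself tested.

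**Figure D2:**
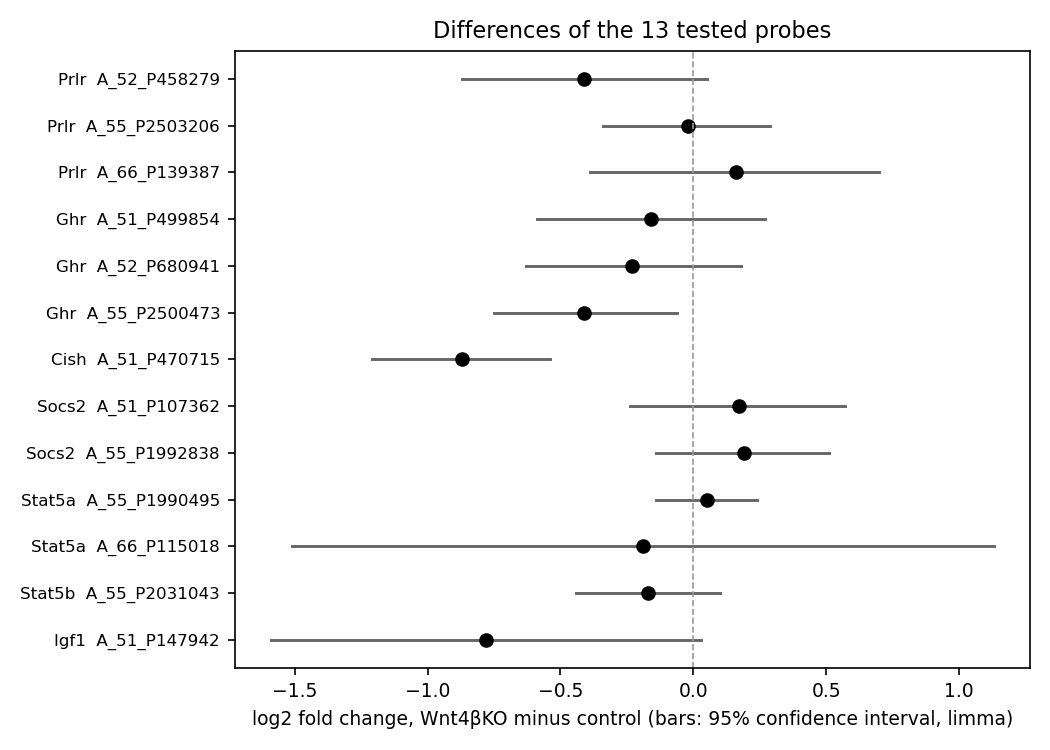
Difference in log2 signal, Wnt4βKO minus control (horizontal axis), of the 13 tested probes, with bars for the limma 95% confidence interval of each. The intervals of Cish and of Ghr probe A_55_P2500473 lie below 0, and the other 11 include 0.

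Tph1, the rate-limiting enzyme of serotonin synthesis in β-cells, did not stand well above background with any of its 3 probes on any of the 7 arrays. The 3 Tph1 probes ran from 5.73 to 5.83 in controls and from 5.74 to 5.87 in Wnt4βKO, while the lowest signal of a probe called well above background was 5.65 to 5.84 depending on the array. Tph2, the neuronal form of the enzyme, read 5.86, 5.81 and 5.84 in controls and 5.85, 5.81, 5.84 and 5.81 in Wnt4βKO with its 1 probe, again at background on all 7 arrays. Neither gene was detectable in either group at this sensitivity, and neither could be tested.

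Igf1, the main mediator of growth hormone action and a STAT5 target in liver, read 8.47, 8.06 and 8.45 in controls and 6.91, 8.41, 7.73 and 7.14 in Wnt4βKO. Wnt4βKO replicates 1, 3 and 4 lay below every control, and replicate 2 lay within the control range. The mean was 8.33 ± 0.23 (SD, n = 3) in controls and 7.55 ± 0.67 (SD, n = 4) in Wnt4βKO. The difference was -0.78 ± 0.35 (SE, 95% interval -1.59 to 0.03), or 58.3% of the control level, with an unadjusted limma p of 0.0574 and an adjusted p of 0.735. With 1 array left out the Igf1 difference ran from -1.07 (without Wnt4βKO replicate 2, unadjusted limma p of 0.00321, adjusted p = 0.388) to -0.57 (without Wnt4βKO replicate 1, unadjusted limma p of 0.122, adjusted p = 0.948), and the unadjusted p was under 0.05 in 5 of 21 alternative treatments. Its within-group SD of 0.54 was larger than that of 97.5% of the tested probes.

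Marker genes of exocrine acinar cells, which surround islets in the pancreas, were mostly lower on the same arrays, although none passed adjustment. Of 29 acinar marker genes 28 were tested, 24 had a difference below 0 and 9 were lower at an unadjusted p of 0.05, with a median difference of -0.59. Over all tested probes, 49.1% had a difference below 0 and 3.63% were lower at that p. Ptf1a, an acinar transcription factor, differed by -1.25 ± 0.30 (SE, limma adjusted p = 0.495), while Cpa1 and Ctrb1, digestive enzyme genes, differed by 0.04 and 0.14. Cpa1 (14.67 to 15.06) and Ctrb1 (14.91 to 15.33) lay near the top of the quantile-normalized scale. Whether that position made their differences smaller was not tested. The mean log2 signal of the 28 genes stood at 13.33, 13.21 and 13.23 in the controls and at 11.97, 13.04, 12.93 and 12.30 in Wnt4βKO. The arrays ordered by Cish stood in the same order as by this acinar mean, and for Igf1 the 3 lowest arrays, Wnt4βKO replicates 1, 4 and 3, were also the 3 with the lowest acinar mean. In whole islets, fewer cells of a type and less RNA per cell cannot be told apart.

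With the acinar mean as a covariate, the Cish difference was -0.60 ± 0.16 (SE, unadjusted limma p of 0.00826, adjusted p = 1.0) and that of Igf1 was 0.09 ± 0.23 (SE, unadjusted limma p of 0.719, adjusted p = 1.0). Without Wnt4βKO replicates 1 and 4, which had the lowest acinar signal, the differences were -0.72 (unadjusted limma p of 0.00484, adjusted p = 1.0) for Cish and -0.25 (unadjusted limma p of 0.343, adjusted p = 1.0) for Igf1. Since every control had a higher acinar mean than every Wnt4βKO array, genotype and acinar marker signal cannot be fully told apart in these 7 arrays.

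**Figure D3:**
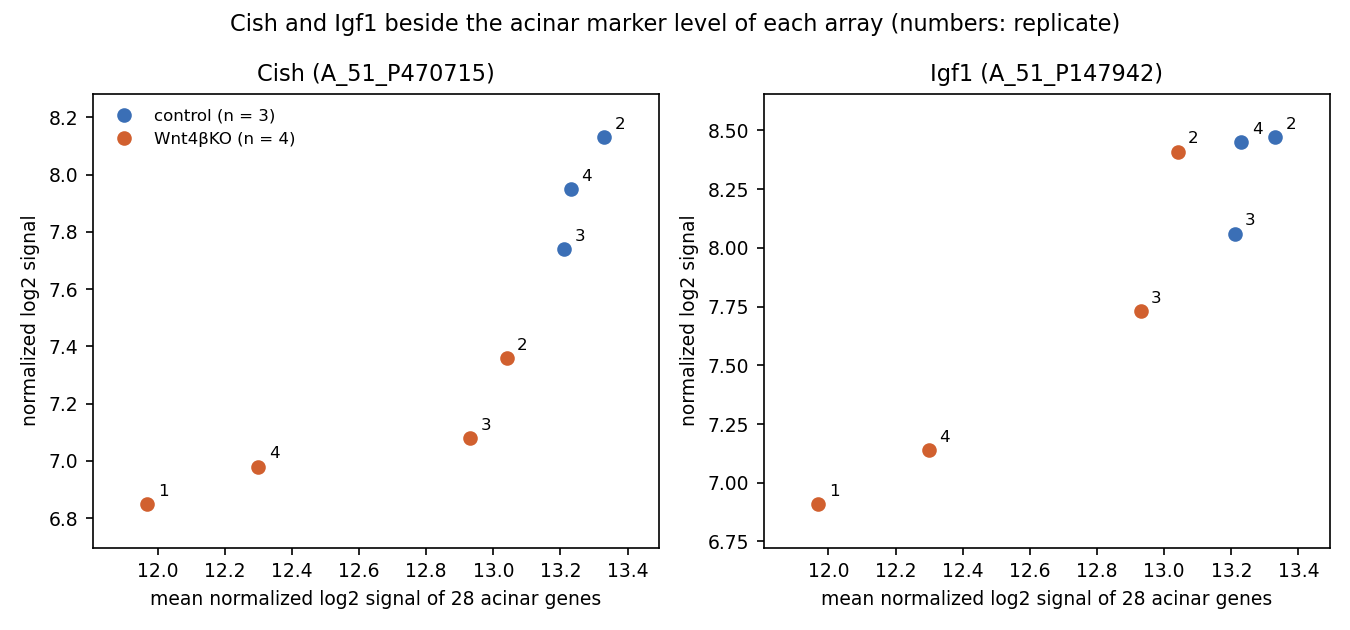
Normalized log2 signal of Cish (left) and Igf1 (right) against the mean log2 signal of 28 acinar marker genes on the same array, each point 1 array numbered by its replicate. Both genes are lowest on Wnt4βKO replicates 1 and 4, the arrays with acinar means of 11.97 and 12.30.

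**Figure D4:**
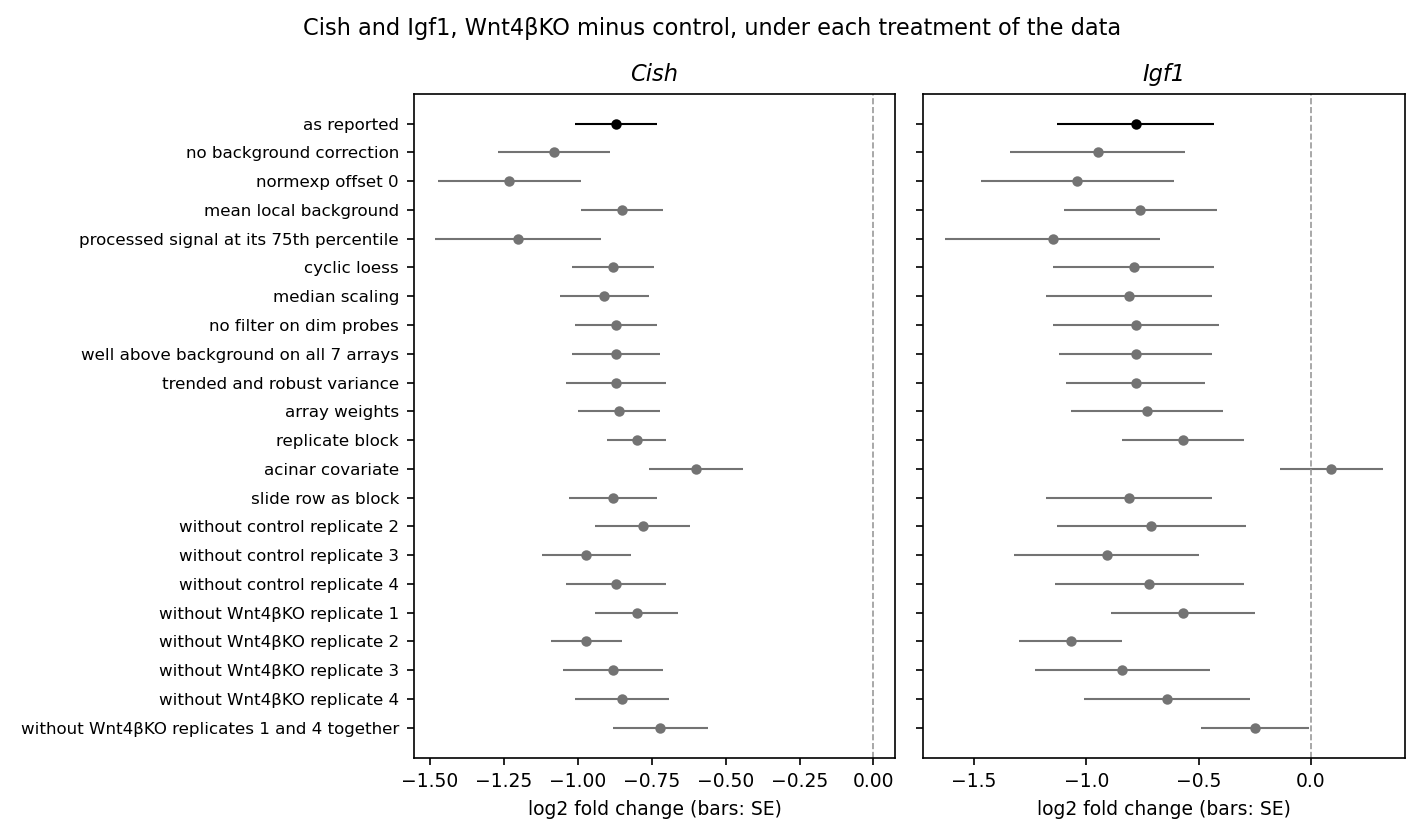
Difference in log2 signal, Wnt4βKO minus control, of Cish (left) and Igf1 (right) as reported (black) and under each of 21 alternative treatments of the data (grey), with bars for the standard error. All Cish values lie between -1.23 and -0.60, and those of Igf1 run from -1.15 to 0.09.

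Other cell types had smaller median differences in their markers. The labelled tissue carried its defining markers: all 10 β-cell markers were tested, and their mean ran from 11.69 to 11.88 in controls and from 11.57 to 11.83 in Wnt4βKO, with a median difference of 0.01. At an unadjusted p of 0.05, 1 β-cell marker was higher and 1 lower, where 3.34% and 3.63% of all tested probes were. The insulin gene Ins1 differed by 0.29 ± 0.10 (SE, limma adjusted p = 0.632), and the other insulin gene, Ins2, by 0.01 ± 0.08 (SE, limma adjusted p = 0.986). Ero1b, which helps proinsulin fold, differed by -0.86 ± 0.28 (SE, limma adjusted p = 0.629). For Ins1 every Wnt4βKO array lay above every control, as in 3.52% of all tested probes. The Ins1 values of 15.06 to 15.59 lay near the top of the quantile-normalized scale, and those of Ins2 (15.67 to 15.82) lay higher still. Whether these positions affected the differences of the insulin genes was not tested. Median differences were 0.06 for α-cell markers, 0.06 for δ- and PP-cell markers, -0.19 for duct, -0.06 for endothelial, -0.01 for stromal and 0.25 for immune markers. The immune mean was highest, at 9.10, in Wnt4βKO replicate 4, against 8.01 to 8.28 in the other Wnt4βKO arrays and 8.06 to 8.19 in controls. The part of these cells in the differences above was not tested. Wnt4 itself was 11.50 ± 0.30 (SD, n = 3) in controls and 11.02 ± 0.22 (SD, n = 4) in Wnt4βKO, a difference of -0.49 ± 0.17 (SE, unadjusted limma p of 0.0232, adjusted p = 0.651), and Wnt4βKO replicate 1 (11.30) lay above control replicate 3 (11.17). Whether its probe lies in the deleted part of the gene is not given in the sources used here.

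Upstream, none of the 4 ligand genes passed the signal filter: Prl, Gh and the placental lactogen gene Prl3b1 stayed at background on all 7 arrays, and Prl3d1 was called above it on 2 arrays with 1 of its 2 probes. Among the kinases and other STATs, 9 of 10 genes were tested, 2 were higher at an unadjusted p of 0.05 and 0 were lower, with a median of 0.16. Over all tested probes, 3.34% were higher and 3.63% lower at that p. Across all the pathway lists 7 genes passed it, and the list counts were not tested against those shares. Stat6, which acts downstream of interleukin receptors, was 6.71, 6.79 and 6.84 in controls and 6.93, 6.97, 7.11 and 7.14 in Wnt4βKO, a difference of 0.26 ± 0.08 (SE, unadjusted limma p of 0.0141, adjusted p = 0.616). Stat2, an interferon pathway factor, was 7.64, 7.49 and 7.60 in controls and 7.92, 7.67, 7.93 and 7.83 in Wnt4βKO, a difference of 0.26 ± 0.09 (SE, unadjusted limma p of 0.0209, adjusted p = 0.638). In both genes the lowest Wnt4βKO value exceeded the highest control, as in 3.52% of all tested probes. However, the second Stat2 probe differed by 0.02. Jak2, the kinase bound to both receptors, ran from 6.20 to 6.57 in controls and from 6.16 to 6.42 in Wnt4βKO (limma adjusted p = 0.918).

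Of the other inhibitors of the pathway, all 13 were tested, 1 was higher and 0 were lower at an unadjusted p of 0.05, with a median of -0.02. Ptpn6, a phosphatase of cytokine receptors, differed by 0.22 ± 0.09 (SE, unadjusted limma p of 0.0456, adjusted p = 0.708), and its other probes by 0.20 and 0.20. Socs3, another STAT-induced brake, ran from 7.08 to 7.79 in controls and from 6.83 to 7.81 in Wnt4βKO (limma adjusted p = 0.965). Of 9 adaptors and downstream kinases 8 were tested and 0 passed in either direction, with a median of 0.13, and Irs2 and Akt1 each differed by 0.19.

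Of 12 other genes of the IGF axis, 8 were tested and 0 passed an unadjusted p of 0.05. All 8 differences were below 0, where 49.1% of all tested probes had one below 0, and the list median was -0.14. That median was -0.04 without Wnt4βKO replicate 1 and -0.06 without control replicate 3. Several of the 8 differences were smaller than their SE, among them Igf1r (-0.01 ± 0.14), Igfbp5 (-0.01 ± 0.24) and Igfbp6 (-0.04 ± 0.10). The largest difference was that of Igf2r, which clears IGF2 from the cell surface, at -0.51 ± 0.36 (SE, limma adjusted p = 0.847). Of 14 other genes of serotonin synthesis, transport and reception 10 were tested and 0 passed, with a median of -0.09 and the largest difference in Maob, which degrades monoamines (0.25 ± 0.18, SE, limma adjusted p = 0.861). The serotonin receptor Htr2b, known to act in β-cells of pregnant mice, was at background on all arrays with both probes.

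Among 15 genes known to respond to lactogens in islets or to act in that response, 14 were tested, 1 was higher and 2 were lower at an unadjusted p of 0.05, with a median of -0.15. The lists were chosen with earlier results of these data known, and the paper had already named Slc2a2 among the affected genes. Its difference therefore lends this list no separate support. Slc2a2, the glucose transporter of β-cells, was the 1 gene of these lists that passed adjustment. It read 9.94, 9.95 and 9.85 in controls and 8.17, 8.41, 8.34 and 8.58 in Wnt4βKO, and it fell by 1.54 ± 0.10 (SE) on the log2 scale, to 34.5% of the control level (limma adjusted p = 0.00878). Ehhadh, a peroxisomal enzyme of fatty acid oxidation, was 6.43, 6.83 and 6.31 in controls and 6.13, 6.15, 6.24 and 6.16 in Wnt4βKO, a difference of -0.35 ± 0.13 (SE, unadjusted limma p of 0.0256, adjusted p = 0.662). Cdkn1b, a cell cycle inhibitor, was 6.49, 6.83 and 6.55 in controls and 7.19, 7.11, 6.69 and 7.07 in Wnt4βKO, a difference of 0.39 ± 0.14 (SE, unadjusted limma p of 0.0283, adjusted p = 0.670). Ccnd2, a cyclin gene of this list, ran between 12.70 and 13.60 in controls and between 12.94 and 13.67 in Wnt4βKO (limma adjusted p = 0.965).

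Of 7 further STAT5 targets 5 were tested, 0 were higher and 1 was lower at an unadjusted p of 0.05, with a median of -0.16. Pim3, a survival kinase, read 7.28, 7.30 and 7.03 in controls and 6.69, 6.69, 6.93 and 6.74 in Wnt4βKO. Every Wnt4βKO array lay below every control, as in 3.69% of all tested probes. The difference was -0.44 ± 0.10 (SE), or 73.5% of the control level (unadjusted limma p of 0.00265, adjusted p = 0.494). The related kinase gene Pim1 ran from 7.56 to 7.79 in controls and from 7.71 to 7.86 in Wnt4βKO (limma adjusted p = 0.888).

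**Figure D5:**
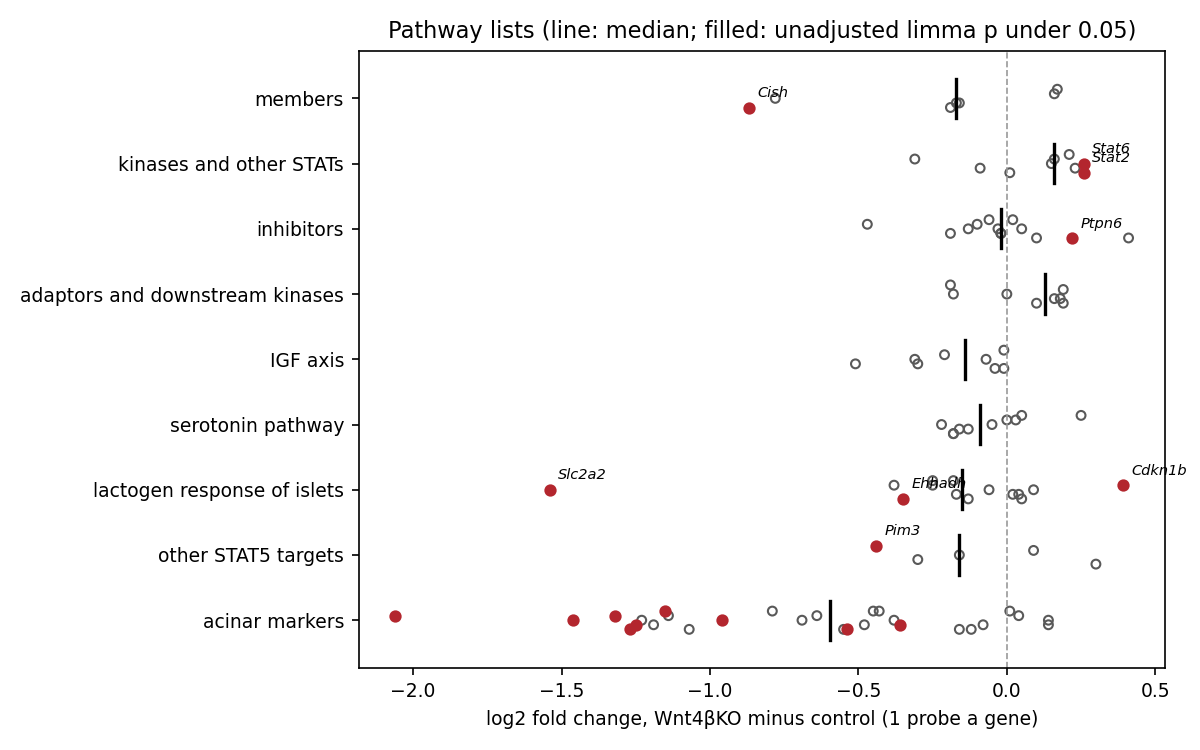
Difference in log2 signal, Wnt4βKO minus control (horizontal axis), of each tested gene (1 probe a gene) in the member list, 7 pathway lists and the acinar markers, with a vertical bar at each list's median and filled points where the unadjusted limma p was under 0.05. Slc2a2 lies farthest left among the pathway genes at -1.54, and the acinar median is -0.59.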

How the data were processed

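RNA from islets of 7 mice was labelled with Cy3 and hybridised to single-colour Agilent mouse arrays on 1 slide. The authors deposited scanner output with spot intensity values that were not normalized across arrays; the study left out 1 further control array for quality. The deposited series table was not used here, since its columns could not be matched to the scanner values of the same samples. Median spot intensity was corrected with normexp (offset 50, median local background) and quantile normalized in limma 3.58.1 (R 4.3.3). Control and flagged spots were left out, and 26153 probes well above background on at least 3 arrays were fitted (lmFit, eBayes). Between 45.5% and 49.0% of spots other than controls passed this call on each array. The number of arrays limits the precision. Probes were named by accession through RefSeq (58.3% named). In lists, the tested probe with the highest mean stood for a gene. Named were every member probe, Wnt4, the pathway list genes past an unadjusted p of 0.05 or else the largest difference, and 3 genes most like each receptor. Other genes (Jak2, Socs3, Pim1, Ccnd2, Htr2b, Irs2, Akt1 and the cell type markers) were chosen after their values were seen. Members and lists were chosen with earlier results of these data known. Replicates were separate mice. The fit was tested on simulated data.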

Additional observations from a re-analysis of the deposited data

How the results depend on the processing

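Across 21 alternatives no member passed an adjusted limma p of 0.05, and the directions of Cish, Stat5b, both Socs2 probes, 1 Prlr probe (A_52_P458279) and 2 Ghr probes (A_52_P680941, A_55_P2500473) held in each one run. The count of member probes lower at an unadjusted p of 0.05 went from 2 to 1 with median scaling, the acinar covariate and without Wnt4βKO replicates 1 and 4 together, and ranged from 1 to 3 with 1 array left out (1 without control replicate 2 or 3 or Wnt4βKO replicate 4). Over all probes, the adjusted count of 4 became 7 with the processed signal at its 75th percentile and 2 with the replicate block, the acinar covariate and without both arrays, and 2 to 5 with 1 array left out (2 without control replicate 2, 3 or 4 or Wnt4βKO replicate 3). The lower and higher counts of 949 and 873 became 545 and 226 with median scaling (29.3% higher, against 47.9%), 1516 and 1393 with no filter, 308 and 298 with the acinar covariate, and 433 and 519 without both arrays. The median of all differences stayed within 0.032 of 0.

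The 7 pathway genes past an unadjusted p of 0.05 became 2 with median scaling and the acinar covariate, 4 with a trended, robust variance, 3 without both arrays, and 4 to 11 with 1 array left out (11 without control replicate 4; 4 without control replicate 2 or Wnt4βKO replicate 1 or 4). The median of the kinases rose to 0.24 with no background correction and with offset 0. That of the inhibitors was 0.06 with the acinar covariate and -0.08 to 0.04 with 1 array left out. That of the adaptors was 0.03 with the covariate, 0.04 without both arrays and 0.00 to 0.12 with 1 array left out. With 1 array left out the IGF axis median ran from -0.21 to -0.04, the serotonin median ran from -0.17 to 0.00, the lactogen median from -0.23 to -0.04 and that of other STAT5 targets from -0.26 to -0.05.

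Several differences nearer 0 changed sign, and so did the larger one of Igf1. Prlr A_55_P2503206 was 0.01 with array weights, 0.02 with the slide row as a block, and -0.11 to 0.06 with 1 array left out. Prlr A_66_P139387 was -0.17 as the gene's mean over probes and -0.11 to 0.32 with 1 array left out. Ghr A_51_P499854 was 0.16 with the acinar covariate and 0.00 without both arrays, and Stat5a A_55_P1990495 was -0.06 and -0.00. Stat5a A_66_P115018 was 0.35 with the processed signal, 0.02 with the slide row and -0.84 to 0.15 with 1 array left out. Igf1, at -0.78 as reported, was 0.09 with the acinar covariate. The cause of these moves was not tested. The slide row and the removal of both arrays were chosen after seeing the data.

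Control and Wnt4βKO arrays share the replicate numbers 2, 3 and 4. Deviations of same-numbered arrays from their group means had r = -0.13, 0.23 and -0.01, and the numbers were used here only to name the arrays. So few pairs cannot exclude shared litters or handling. With the replicate block, 1 member probe was higher (Socs2 A_55_P1992838, 0.28, unadjusted limma p of 0.0335), Cish was -0.80 (unadjusted limma p of 0.000904), Prlr A_66_P139387 was -0.08 and the medians of the inhibitors and the IGF axis were 0.02 and -0.04. The probes for Tph1 and Tph2 were not well above background, and the ranges of 3 against 4 arrays limit what can be seen for the dim probes.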

Other observations

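The Stat5a probe A_66_P115018 varied by 1.96 on the log2 scale over the 7 arrays in a way that did not follow genotype. After its values were seen, the 26103 other probes with a value on every array were searched for the same pattern. Among the most similar probes were those of Chchd10, a mitochondrial protein gene (Pearson r = 0.976 over 7 arrays, range 1.07), Tmem260 (0.972, range 0.24) and Zfp146 (0.971, range 0.54). Whether so many comparisons over 7 arrays would give such r values without any relation was not tested. The second Stat5a probe, A_55_P1990495, had a range of 0.23 over the same arrays.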
